A study of Mus musculus with 24 samples.

Results

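Most of the genes described here encode the proteins of the cytosolic ribosome, the particle that translates mRNA in the cytoplasm. They were taken by symbol: every row whose mouse symbol begins with *Rpl* or *Rps* and a digit, together with *Rplp0*, *Rplp1*, *Rplp2* and *Rpsa*, leaving out pseudogene symbols with "-ps" and the S6 kinases. This gave 79 of the 10818 genes in the table. They are 39 genes of the large subunit, 30 of the small subunit, the 3 genes of the P stalk, a flexible arm of the large subunit that recruits elongation factors, and 7 related genes whose symbols match: *Rpl22l1*, *Rpl36al*, *Rpl37rt*, *Rpl6l*, *Rps27l* and *Rps3a2*, named after a standard ribosomal protein gene, and *Rps19bp1*, which encodes a binding partner of RPS19. Of 77 standard genes that the symbols cover, 72 were in the table, and *Rpl13*, *Rpl24*, *Rpl35*, *Rpl35a* and *Rps10* were not analysed here. The rule left out 28 pseudogene rows and 9 S6 kinase rows. It kept *Rpl6l* and *Rps3a2*, which GENCODE M21 lists as processed pseudogenes, and *Rpl37rt*, listed as a transcribed processed pseudogene, since their symbols lack "-ps".

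The samples were primary mouse epidermal progenitors, the dividing basal cells of the skin, isolated from newborn pups and grown on feeder cells in low calcium. In the first experiment cells carried by lentivirus an shRNA against *Id1* (*shId1*) or a scrambled shRNA (*shScr*), and in the other a doxycycline-inducible ID1 construct, with (+dox) or without (-dox) 3 days of doxycycline. Each was sampled after 24 h in high calcium, which starts keratinocyte differentiation, and in low calcium at 0 h, giving 8 groups of 3 libraries: *shId1* and *shScr* at 24 h and at 0 h, and +dox and -dox at 24 h and at 0 h. The paper describes lentiviral infection for both shRNA groups, and the -dox cells carry the same construct as the +dox cells. Cells without the construct that were given doxycycline are not among the samples. An effect of the induced ID1 and one of doxycycline itself therefore cannot be told apart. The labels call the libraries biological replicates without saying that they come from separate cultures, so p-values measure the spread between these libraries, which may be technical. A 24 h group in low calcium is not among the samples, and an effect of calcium and one of the added day in culture cannot be told apart. The *shScr* columns are named H2BGFP in the table, which in the paper is a vector backbone with a reporter. They were assigned to *shScr* because no other group was left for them, so their construct rests on that assignment. Poly(A) RNA was sequenced as stranded libraries, and values are CPM, reads of a gene relative to a library size that the authors scaled by TMM, with no division by the length of the gene. In these bulk samples fewer cells of a type and less RNA per cell cannot be told apart.

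Ribosomal proteins are needed in fixed proportions, and the genes for them are usually expressed together and at high level. In vertebrates most of their mRNAs begin at a C followed by a run of pyrimidines, the 5′ TOP motif, through which LARP1 and the mTOR pathway control their translation. Making the particle also takes a separate set of factors in the nucleolus, where RNA polymerase I transcribes the rRNA. In the skin, dividing basal cells and differentiating cells differ in how much protein they make, and ribosomal protein mRNAs are therefore often looked at when progenitors leave the basal state.

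To show what these gene starts look like, 30 bases around the annotated start of some members were read on the strand of the gene, from 10 before it to 20 after it. Capitals mark a run, counted from a C followed by at least 4 further C or T, where that C lies within 5 bases of the start. Where several such C are present, the capitals begin at the C nearest the start. The stretch of pyrimidines can therefore begin before the capitals, also outside those 5 bases. Starts are RefSeq's on GRCm38. The first 6 have such a run, and the last 4, among them genes that the results below turn on, do not.
Rpl13a (chr7:45128726-45128755, minus strand): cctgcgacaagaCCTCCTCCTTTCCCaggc
Rpl15 (chr14:18270967-18270996, minus strand): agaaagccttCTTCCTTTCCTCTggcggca
Rpl27a (chr7:109519185-109519214, plus strand): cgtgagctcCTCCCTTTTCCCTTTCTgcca
Rplp2 (chr7:141447641-141447670, plus strand): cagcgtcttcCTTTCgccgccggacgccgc
Rpl22l1 (chr3:28805498-28805527, plus strand): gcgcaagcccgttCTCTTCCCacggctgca
Rps18 (chr17:33955646-33955675, minus strand): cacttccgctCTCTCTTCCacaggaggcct
Rplp0 (chr5:115559457-115559486, plus strand): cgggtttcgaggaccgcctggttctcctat
Rpl5 (chr5:107900518-107900547, plus strand): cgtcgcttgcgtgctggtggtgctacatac
Rpl4 (chr9:64173377-64173406, plus strand): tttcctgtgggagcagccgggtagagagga
Rpl23 (chr11:97782420-97782449, minus strand): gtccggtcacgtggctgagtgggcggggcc

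A start was found for 57 members, and 26 of them (45.6%) had the run, against 21.2% of all 27025 genes in the promoter table and 23.7% of 8285 other genes of the expression table. The search used the gene's strand only, and a missing run says only that these letters are not at the annotated start. The members lie on 18 chromosomes, 14 of them on chromosome 7, and 29 have a small nucleolar RNA gene within their bounds. Many have processed pseudogenes: a median of 21% of their 50-base words also occurs in another gene, 7 share more than 50%, and *Rps19bp1* is among those that share none. The sources used here do not say how such reads were counted, which leaves the levels of *Rps3a2* (90.2% shared), *Rpl36* (81.1%), *Rpl6l* (76.4%), *Rps3a1* (71.0%), *Rpl19* (57.4%), *Rpl23a* (50.1%) and *Rplp1* uncertain.

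Divided by exonic length, the mean over all libraries ran between 2.31 CPM per kilobase for *Rpl6l* and 4021 for *Rplp1*, with a median over members of 396. The 4 highest were *Rplp1* (4021), *Rplp0* (3201), *Rps15* (2700.0) and *Rpl32* (2043). The low end held *Rpl6l*, *Rps3a2*, *Rpl36al* and *Rps19bp1*, all of them related genes and not standard subunits, and *Rpl13a* (57.1) was among the lowest standard genes. The annotated exonic length counts every exon of every transcript of a gene, which lowers this value for genes with retained introns.

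The libraries held 21442371 to 35720140 reads in the table, counted as each library's summed values divided by the worth of 1 read. All 8 keratinocyte markers were measured and no fibroblast marker of 10 or leukocyte marker of 6 was among the rows, so RNA of feeder cells could not be measured here; of 6 melanocyte markers only *Pmel* was listed, at 0.963 to 3.52 CPM. *Id1*, the targeted gene, stood at 25.7, 19.7 and 39.0 CPM in *shId1* cells and 60.7, 103 and 111 CPM in *shScr* cells at 0 h, but at 24 h the groups overlapped, with 17.6, 40.1 and 29.7 CPM in *shId1* cells and 27.9, 44.8 and 69.6 CPM in *shScr* cells, lower in *shId1* cells in each of the 3 same-numbered pairs. In the induction experiment it stood at 41.6, 107 and 73.0 CPM in +dox cells and 10.5, 13.2 and 7.15 CPM in -dox cells at 0 h, and at 106, 96.0 and 76.1 CPM in +dox cells and 73.9, 67.5 and 59.7 CPM in -dox cells at 24 h. Replicate 1 of *shId1* and of *shScr* at 24 h, replicate 1 of *shId1* at 0 h and replicate 1 of -dox at 0 h stood apart by lower ribosomal protein values. The median member lay 0.27 (*shScr*) and 0.09 (*shId1*) log2 units below its mean over all libraries in the 24 h libraries numbered 1 and 0.20 to 0.40 above it in the other 24 h libraries of that experiment, so counts are also given without all shRNA libraries numbered 1.

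The first question was how much of the mRNA the ribosomal protein genes take up and whether differentiation changes it. Together the 79 genes held 7.20%, 8.70% and 7.93% of all values in *shId1* cells at 24 h, against 5.77%, 6.70% and 6.70% in *shId1* cells at 0 h. In *shScr* cells their share was 6.71%, 8.41% and 8.22% at 24 h, against 5.45%, 6.07% and 6.58% at 0 h. It was 11.1%, 10.5% and 9.46% at 24 h in +dox cells, against 7.08%, 7.48% and 7.53% at 0 h. In -dox cells it was 9.64%, 9.29% and 8.86% at 24 h, against 6.03%, 7.35% and 7.24% at 0 h. In each of the 4 kinds of cells every 24 h library was above every 0 h library, and a share does not depend on how libraries are scaled to each other. Silenced and induced cells overlapped with their controls at each time, although 2 of the 3 +dox libraries were above all -dox libraries at 24 h and at 0 h. Between shRNA libraries of the same number, which may or may not be paired samples, the share was higher in *shId1* than in *shScr* cells in 3 of 3 pairs at 0 h and in 2 of 3 at 24 h, which is a description with no test. Mitochondrially encoded transcripts moved the other way in the induction experiment, with 0.838% to 1.33% of values at 24 h and 2.84% to 3.47% at 0 h. Without them the ribosomal protein share was still 8.94% to 11.3% at 24 h and 6.25% to 7.77% at 0 h.

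**Figure D1:**
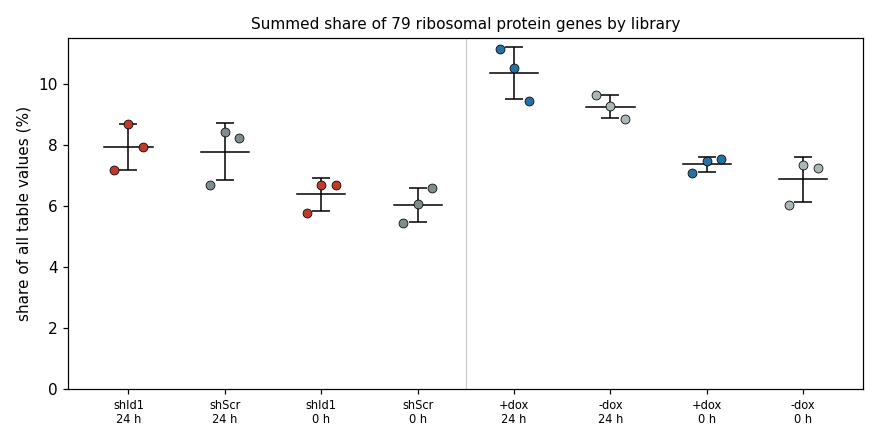
Share of all table values, in percent, held by the 79 ribosomal protein genes in each library (points), with the mean and SD of the 3 libraries of each group (lines). Shares at 24 h exceed those at 0 h in each of the 4 kinds of cells, with 9.46% to 11.1% in +dox cells at 24 h the highest.

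Gene by gene, most ribosomal protein mRNAs rose in high calcium. Calls are limma tests on log2(CPM + 0.5) with a Benjamini-Hochberg adjusted p under 0.05 over all genes tested, and all 79 members passed the filter on low values in both experiments. In *shId1* cells 65 of 79 rose (all genes 29.5%) and 1 fell (28%). In *shScr* cells 63 rose (all genes 30.6%) and 1 fell (30.1%). In +dox cells 70 rose (35.6%) and 0 fell (39.1%). In -dox cells 67 rose (37.6%) and 0 fell (38.3%). The median log2 fold change of the members was 0.63 in *shId1*, 0.56 in *shScr*, 0.75 in +dox and 0.77 in -dox cells, beside medians over all genes of 0.02, 0.01, -0.05 and -0.02. Leaving out 1 library moved the count in *shScr* cells most: 41 rose without replicate 1 at 0 h, 40 without replicate 2 at 24 h and 41 without replicate 3 at 24 h. These are 51.9%, 50.6% and 51.9% of the members, beside 27.3%, 26.9% and 27.4% of all genes. Without all shRNA libraries numbered 1, 75 rose (all genes 33.2%) and 1 fell (31.8%) in *shId1* cells and 72 rose (34%) and 1 fell (33.1%) in *shScr* cells. Those at 24 h were picked for their low ribosomal protein values, so these higher counts are not independent support. For 51 members the rise was called in all 4 kinds of cells, as it was for 15.3% of the 10761 genes tested in all 4, and no member lacked a call in every one.

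The rises were broad and mostly below 2-fold. In the shRNA experiment no member rose past 2-fold (all genes 9.38% higher and 6.2% lower in *shId1*, 10.9% higher and 7.97% lower in *shScr* cells), although limma called 65 and 63 at any fold and counted 70 and 68 in either direction at an unadjusted p under 0.05. In the induction experiment 16 did in +dox cells (all genes 10.1%) and 15 in -dox cells (14.8%), and 0 fell past 2-fold (14.9% and 15.9%). The first count was 10 without replicate 1 and 27 without replicate 3 of +dox at 24 h, and the other was 9 without replicate 1 of -dox at 0 h. Both subunits took part: the median log2 fold change of the large and small subunit genes was 0.60 and 0.66 in *shId1*, 0.52 and 0.59 in *shScr*, 0.70 and 0.83 in +dox, and 0.71 and 0.84 in -dox cells. Of the 39 large subunit genes 33, 32, 34 and 33 rose in these cells, and of the 30 small subunit genes 27, 27, 28 and 29.

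The size of the rise depends on how libraries are scaled. The authors' TMM values sum to more at 24 h, so with each library set to the same total the median of all genes moved by -0.27 (*shId1*), -0.18 (*shScr*), -0.31 (+dox) and -0.32 (-dox) log2 units. Then 41, 46, 59 and 56 members rose in *shId1*, *shScr*, +dox and -dox cells and 3, 2, 5 and 4 fell, with medians of 0.35, 0.37, 0.43 and 0.43. These are 51.9%, 58.2%, 74.7% and 70.9% of the members rising, beside 17.6%, 22.3%, 22.6% and 25.4% of all genes, and 3.8%, 2.53%, 6.33% and 5.06% falling, beside 41.8%, 37.9%, 53.5% and 52.6%. Relative to the median of all genes the members stood 0.61, 0.54, 0.78 and 0.77 log2 units higher under that scaling, beside 0.61, 0.55, 0.80 and 0.78 under TMM. One factor per library moves all genes nearly alike, so this match was fixed in advance. Quantile normalization left 23, 43, 42 and 42 rising and 5, 4, 9 and 9 falling, with medians of 0.23, 0.34, 0.27 and 0.25. The members then stood only 0.30, 0.39, 0.25 and 0.27 log2 units above the median of all genes. The rising members were then 29.1%, 54.4%, 53.2% and 53.2%, beside 25.6%, 27.5%, 37.6% and 37% of all genes, so that in *shId1* cells the share was near that of all genes, and 32.2%, 32.9%, 35.9% and 37.8% of all genes fell.

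**Figure D2:**
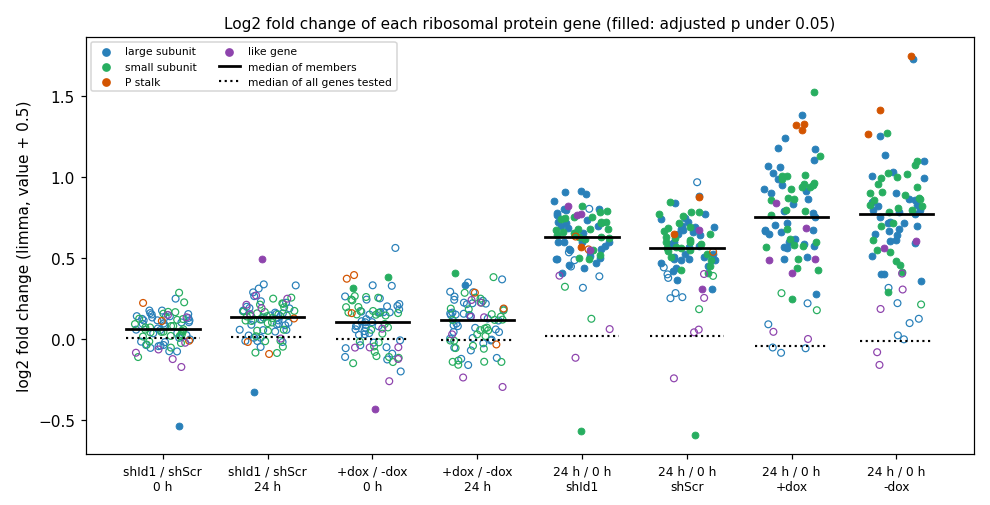
Log2 fold change of each of the 79 genes (points, coloured by subunit, with the 7 related genes as like gene, and filled where the adjusted p is under 0.05) in the 8 comparisons, with the median of the members (solid line) and of all genes tested (dotted line). The members' medians are 0.56 to 0.77 in the comparisons of 24 h with 0 h and 0.06 to 0.13 in those of silenced or induced cells with controls.

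The P stalk genes were among those with the largest rises in the induction experiment. *Rplp0* encodes the base of the stalk, and *Rplp1* and *Rplp2* the acidic proteins that pair on it. *Rplp0* had 11492, 10899.6 and 8224 CPM in +dox cells at 24 h, against 3914, 4268 and 4223 CPM at 0 h (log2 fold change 1.29 ± 0.11 SE, adjusted p 1.3e-07, limma). In -dox cells it had 8952, 9048 and 8645 CPM at 24 h, against 3452, 3848 and 3831 CPM at 0 h (1.26 ± 0.11, adjusted p 9.7e-08). Every 24 h library was above every 0 h library in both. In the shRNA experiment the same gene had 3682, 5273 and 4680.5 CPM in *shId1* cells at 24 h, against 2729, 3141 and 3278 CPM at 0 h, and 3839, 5232 and 5512 CPM in *shScr* cells at 24 h, against 2546, 3266 and 3474 CPM at 0 h. The groups did not overlap there either, with log2 fold changes of 0.56 ± 0.18 and 0.65 ± 0.18 (adjusted p 0.019 and 0.0085), but under quantile normalization those 2 turned to -0.13 and -0.09.

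*Rplp2* had 1319, 1254 and 932 CPM in -dox cells at 24 h, against 314, 383 and 338 CPM at 0 h, the member with the largest log2 fold change there (1.75 ± 0.17, adjusted p 3.0e-07, limma). In +dox cells it had 1326, 1126 and 957 CPM at 24 h, against 337, 490.4 and 556 CPM at 0 h (1.32 ± 0.17). In the shRNA experiment its groups overlapped between times and it was not called, with 0.55 ± 0.26 in *shId1* and 0.54 ± 0.26 in *shScr* cells (adjusted p 0.084 and 0.089). *Rplp1* rose by 1.33 ± 0.17 in +dox and 1.41 ± 0.17 in -dox cells, and by 0.87 ± 0.34 in *shScr* cells (adjusted p 0.042), and was not called in *shId1* cells (0.63 ± 0.34).

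Other members that went past 2-fold are standard parts of both subunits. *Rps14*, a small subunit protein on the platform of that subunit, had 5896, 5718 and 4001 CPM in +dox cells at 24 h, against 1721, 1823 and 1805 CPM at 0 h (1.52 ± 0.13, adjusted p 6.3e-08, limma), the largest change in those cells. In -dox cells it had 3892, 3892 and 3850.2 CPM at 24 h, against 1463, 1765 and 1614 CPM at 0 h (1.27 ± 0.13). Its rise in *shId1* and *shScr* cells was 0.82 ± 0.16 and 0.84 ± 0.16 (adjusted p 0.00086 and 0.00061). *Rpl36* of the large subunit went up by 1.38 ± 0.22 in +dox and 1.73 ± 0.22 in -dox cells, but its 24 h values ran between 264 and 765 CPM in *shId1* and between 289 and 719 CPM in *shScr* cells, and neither change there was called (adjusted p 0.13 and 0.07). *Rpl10a*, *Rpl13a* and *Rps15* were among those that passed 2-fold in both kinds of cells of the induction experiment. *Rpl37a*, *Rpl19*, *Rpl39*, *Rpl15*, *Rpl41*, *Rps27* and *Rps2* did so in +dox cells alone and *Rpl18*, *Rpl27a*, *Rpl8*, *Rps9*, *Rps13* and *Rps16* in -dox cells alone. No member had a called interaction of doxycycline and time, so a difference in response between the 2 kinds of cells was not detected for them. That count of 0 is limma's with all libraries. At an unadjusted p under 0.05 limma had 3 members, beside 24.5% of all genes. Without replicate 1 of -dox at 0 h and without replicate 1 or 3 of +dox at 24 h, 4, 1 and 3 members were called. Over all genes 1184 of 10783, 1213 of 10789 and 2002 of 10789 were then called.

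In the shRNA experiment other members led. In *shId1* cells *Rpl39*, *Rpl36a* and *Rpl26*, all of the large subunit, had the largest log2 fold changes, 0.91 ± 0.13, 0.91 ± 0.13 and 0.90 ± 0.15 (adjusted p 7.6e-05, 9.1e-05 and 0.00029, limma). *Rpl39* had 395, 462 and 440.1 CPM at 24 h, against 211, 249.9 and 227 CPM at 0 h, without overlap. In *shScr* cells *Rpl36* (0.97 ± 0.43, not called) and *Rplp1* were near the top. *Rps6*, the ribosomal substrate of the S6 kinases, and *Rps19* and *Rpl11*, both known from Diamond-Blackfan anaemia in humans, rose in all 4 kinds of cells. *Rps6* rose by 0.65 ± 0.13, 0.54 ± 0.13, 0.57 ± 0.11 and 0.83 ± 0.11 in *shId1*, *shScr*, +dox and -dox cells. *Rps19* rose by 0.72 ± 0.16, 0.60 ± 0.16, 0.76 ± 0.11 and 0.90 ± 0.11, and *Rpl11* by 0.76 ± 0.15, 0.74 ± 0.15, 0.75 ± 0.13 and 0.71 ± 0.13 in the same order.

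A few standard members were not called in the induction experiment and rose in the other under the authors' scaling. *Rpl4*, a large subunit protein that lines the exit tunnel, had 3153, 3311 and 3352 CPM in +dox cells at 24 h, against 3476, 3403 and 3551 CPM at 0 h (-0.09 ± 0.08, adjusted p 0.34, limma). In -dox cells it had 3207, 3319.9 and 3332 CPM at 24 h, against 3022, 3372 and 3515 CPM at 0 h. All 24 h values lay within or below the 0 h range in both. In *shId1* and *shScr* cells *Rpl4* rose by 0.44 ± 0.13 and 0.41 ± 0.13 (adjusted p 0.01 and 0.013), but under quantile normalization it was called lower in both, at -0.23 and -0.25 (adjusted p 0.048 and 0.031). *Rpl23* had 1189, 1217 and 1323 CPM in +dox cells at 24 h, against 1319, 1304 and 1248 CPM at 0 h, while it rose by 0.60 ± 0.13 and 0.48 ± 0.13 in *shId1* and *shScr* cells (-0.05 and 0.07 under quantile normalization, neither called). *Rpl5*, *Rpl7*, *Rps3a1* and *Rpl21* were likewise not called in either kind of cells of the induction experiment and rose in both of the other, although *Rpl7* stood at -0.15 and -0.12 in *shId1* and *shScr* cells under quantile normalization. With each library set to the same total *Rpl4* and *Rpl23* fell in both kinds of cells of the induction experiment and *Rpl5* and *Rpl7* in +dox cells. Under quantile normalization all of these genes were called lower in +dox and in -dox cells (adjusted p 1.9e-05 to 0.042, limma). The log2 fold changes in +dox and -dox cells were then -0.72 and -0.75 for *Rpl4*, -0.74 and -0.67 for *Rpl23* and -0.50 and -0.29 for *Rpl5*. They were -0.55 and -0.66 for *Rpl7*, -0.36 and -0.35 for *Rps3a1* and -0.23 and -0.22 for *Rpl21*. The difference between the 2 experiments was not tested.

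Across members the response differed with base composition in one experiment. For the 76 members with a coding transcript in GENCODE M21, the GC content of the longest one ran between 40.6% and 62.4%. In +dox and -dox cells Pearson's r of GC content with the log2 fold change was 0.51 and 0.56, and in *shId1* and *shScr* cells -0.07 and 0.12. Over all 10140 genes with a value it was 0.57 and 0.54 in +dox and -dox cells and over 10133 genes 0.07 and 0.16 in *shId1* and *shScr* cells, so the members followed the table. These are descriptions across genes that share libraries, and genes are not independent replicates. The third of the members with the lowest GC content had a median log2 fold change of 0.58 in +dox and 0.55 in -dox cells, the third with the highest 0.95 and 0.88. Among the 26 members with the highest GC content 12 and 9 rose past 2-fold in +dox and -dox cells, and among the 25 with the lowest 3 and 2. Of all genes, whatever their GC content, 10.1% and 14.8% did. Whether members rose past 2-fold more often than other genes of like GC content was not tested. *Rpl5*, *Rpl7*, *Rpl23* and *Rpl4* have 42.7%, 45.8%, 46.4% and 48.2%, and *Rplp0*, *Rplp2*, *Rps14*, *Rplp1* and *Rpl36* have 53.0%, 55.0%, 56.2%, 57.3% and 60.8%. Whether base composition plays a part in the counting of these libraries was not tested.

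**Figure D3:**
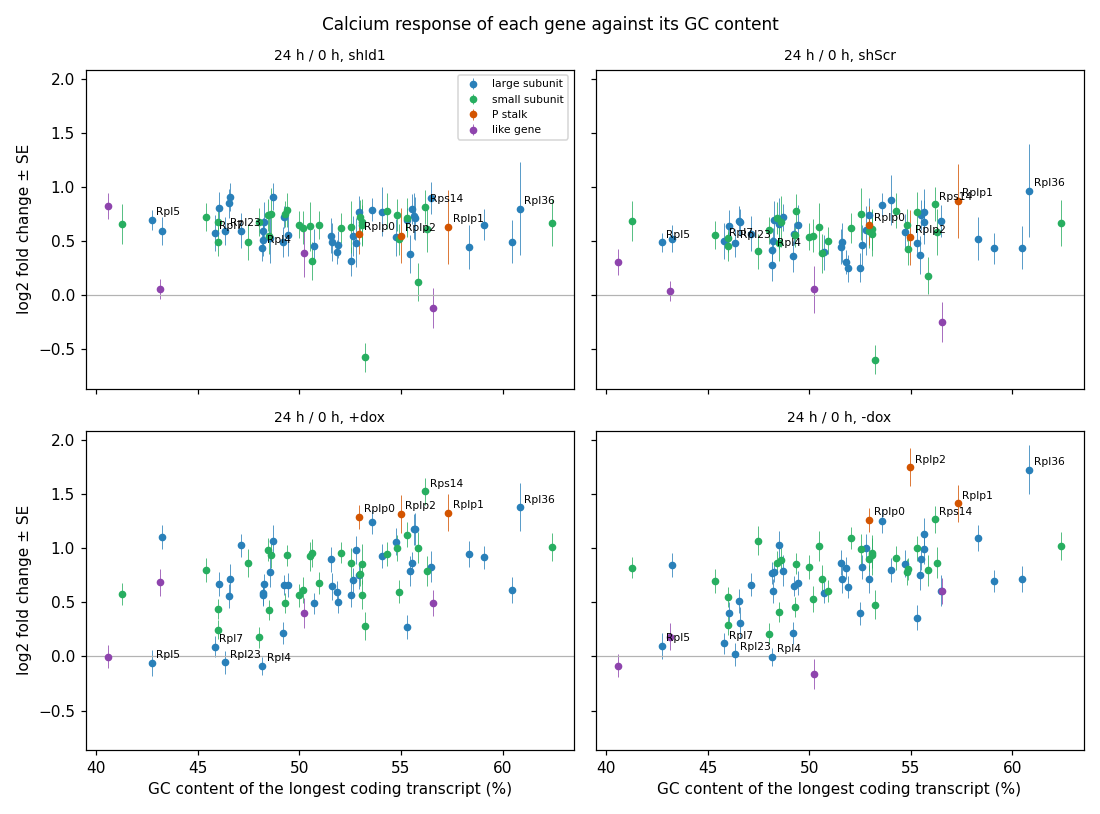
Log2 fold change at 24 h against 0 h (vertical, with its SE) against the GC content of the longest coding transcript (horizontal, percent) for 76 members in 4 kinds of cells. Values climb with GC content in +dox and -dox cells (r of 0.51 and 0.56), while the points of *shId1* and *shScr* cells run level (r of -0.07 and 0.12).

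Members with the start run and members without it both rose. Of 26 with it, 20, 22, 25 and 24 rose in *shId1*, *shScr*, +dox and -dox cells, and of 31 with a start and no run 27, 25, 27 and 25. Their medians were 0.62, 0.55, 0.86 and 0.82 with it and 0.65, 0.58, 0.75 and 0.71 without it. Members with more than 20% of shared 50-base words (42) had medians of 0.61, 0.53, 0.64 and 0.72, and the other 37 of 0.66, 0.57, 0.78 and 0.82. The limit of 20% is close to the median share of 21%, so many of the other 37 also share sequence. Whether shared reads play a part was not tested. Of the 28 pseudogene rows outside the rule 19, 13, 25 and 17 rose in *shId1*, *shScr*, +dox and -dox cells (all genes 29.5%, 30.6%, 35.6% and 37.6%), with medians of 0.66, 0.53, 0.90 and 0.52. Reads of the parent genes may be among theirs, which was not tested.

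**Figure D4:**
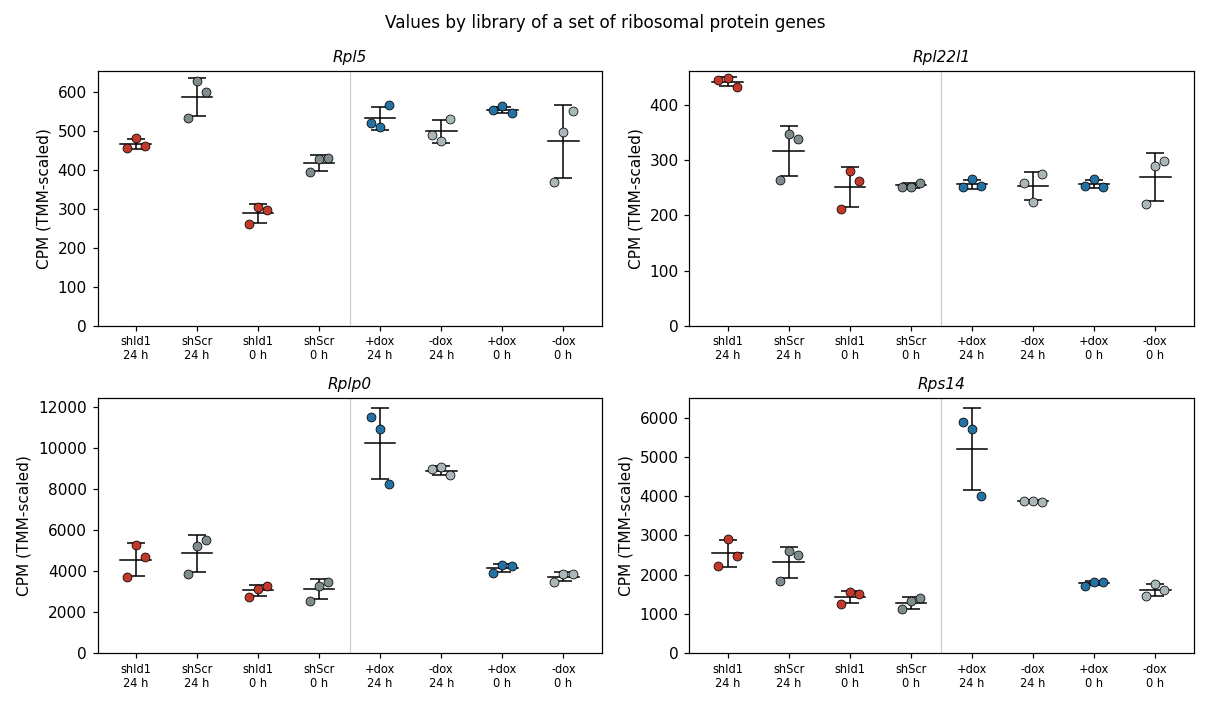
CPM of *Rpl5*, *Rpl22l1*, *Rplp0* and *Rps14* in each library (points), with the mean and SD of the 3 libraries of each group (lines). *Rpl5* is lower in *shId1* than in *shScr* cells at both times, *Rpl22l1* is higher in *shId1* cells at 24 h, and *Rplp0* and *Rps14* are highest in the induction experiment at 24 h.

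The members that follow the rest most closely were *Rpl37*, *Rpl41* and *Rps18* in the shRNA experiment (r = 0.99 with the mean of the other members over 12 libraries each) and *Rps18*, *Rps3* and *Rpl32* in the induction experiment (r = 1.0, 0.99 and 0.99). Of 79 members 67 and 61 had r above 0.9. The least alike in the induction experiment were *Rpl4* (r = -0.23), *Rpl22l1* (-0.04) and *Rpl23* (0.02), and in the shRNA experiment *Rps19bp1* (0.0063) and *Rps27l* (0.59) were among the least alike. Each r is a description over libraries that share their scaling and their 2 times.

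The second question was whether ribosomal protein mRNAs differ with *Id1* silencing, or with doxycycline and the ID1 it induces. Here few members were called with all libraries and the authors' scaling. In *shId1* against *shScr* cells 0 members rose at 0 h (all genes 4.03%) and 1 fell (3.44%), and at 24 h 1 rose (7.9%) and 1 fell (6.72%). In +dox against -dox cells 2 rose at 0 h (20.5%) and 1 fell (13.8%), and at 24 h 2 rose (10.6%) and 0 fell (10.9%). The count of 0 rising at 0 h in *shId1* cells is limma's. With edgeR on recovered reads 4 rose (5.06%, beside 7.88% of all genes), *Rpl23a*, *Rpl29*, *Rpl31* and *Rps28*, named after their values were seen. That fit lacks replicate 1 of *shId1* at 0 h, which stood apart by lower ribosomal protein values, so method and libraries both differ. Without that library alone limma had 0 rising (all genes 3.87%). At an unadjusted p under 0.05 limma had 1 member in either direction, beside 22.4% of all genes. No member passed 2-fold in any of these 4 comparisons. Of all genes 1.4% were higher and 0.538% lower past 2-fold in *shId1* against *shScr* cells at 0 h, and 2.21% and 1.14% at 24 h. In +dox against -dox cells 4.26% were higher and 1.01% lower past 2-fold at 0 h, and 0.964% and 1.15% at 24 h. In +dox against -dox cells the share of members that rose was above that of all genes in 2 alternatives, at 0 h under quantile normalization (17 members or 21.5%, beside 18.4%) and at 24 h without replicate 3 of +dox (26.6%, beside 16.6%). Member medians were 0.06 and 0.13 in *shId1* against *shScr* cells at 0 h and 24 h and 0.10 and 0.12 in +dox against -dox cells. The labels do not say whether the numbers pair the shRNA libraries of 1 time. With the replicate number as a block 3 members rose (*Rpl22l1*, *Rpl31* and *Rpl38*) and 1 fell (*Rpl5*) at 24 h, as they did without all shRNA libraries numbered 1. These are 3.8% and 1.27% of the members, beside 11% and 10.1% of all genes with the block and 11.2% and 9.72% without those libraries. *Rpl31* and *Rpl38*, of the large subunit, were also named after their values were seen.

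*Rpl5* was the 1 member lower in *shId1* cells at both times. It encodes a large subunit protein that, with RPL11 and 5S rRNA, forms a particle that binds MDM2 in stressed cells. It had 261, 305 and 297 CPM in *shId1* cells and 394, 428 and 429.5 CPM in *shScr* cells at 0 h (-0.54 ± 0.09, adjusted p 0.004, limma), without overlap. At 24 h it had 457, 481 and 460.2 CPM in *shId1* cells and 533, 628 and 599 CPM in *shScr* cells (-0.33 ± 0.09, adjusted p 0.032), again without overlap. The call at 0 h held under all 18 alternatives, with log2 fold changes of -0.58 to -0.47. At 24 h it held under 11 of 17, and was lost when only the 2 groups were fitted and without any 1 of *shId1* replicates 1, 2 or 3 or *shScr* replicates 2 or 3 (adjusted p up to 0.12). With the replicate block the adjusted p was 0.00089 at 0 h and 0.0071 at 24 h. *Rpl11* did not move with it (0.09 ± 0.15 and 0.11 ± 0.15, neither called). *Rpl5* was not called in +dox against -dox cells (0.25 ± 0.12 at 0 h, adjusted p 0.12, and 0.09 ± 0.12 at 24 h). The gene lies at chr5:107900502-107909005 (GRCm38, plus strand), overlaps *Fam69a* and contains 3 small nucleolar RNA genes. A share of 25.9% of its 50-base words recurs in other genes.

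*Rpl22l1*, a paralogue of *Rpl22* that can replace it in the large subunit, was the 1 member higher in *shId1* cells at 24 h. It had 445, 448 and 433 CPM in *shId1* cells and 264, 348 and 338 CPM in *shScr* cells (0.49 ± 0.12, adjusted p 0.018, limma), without overlap. At 0 h it had 211, 281 and 263 CPM in *shId1* cells and 252, 252 and 259 CPM in *shScr* cells, which overlapped. The response to calcium was 0.82 ± 0.12 in *shId1* cells and 0.31 ± 0.12 in *shScr* cells, and the interaction of 0.51 ± 0.17 was not called (adjusted p 0.092; 0.036 with the replicate block). The call at 24 h held under 12 of 17 alternatives and had an adjusted p of 0.0066 with the block, and was lost without *shScr* replicate 1, *shId1* replicate 2 or *shId1* replicate 3, with only the 2 groups fitted and with quantile normalization (adjusted p up to 0.06). *Rpl22* itself had 387, 394 and 348 CPM in *shId1* cells and 283, 376 and 337 CPM in *shScr* cells at 24 h, and was not called. In the induction experiment *Rpl22l1* stayed between 219.8 and 299 CPM in all 12 libraries. It was called lower at 24 h than at 0 h with each library set to the same total, at -0.32 in +dox and -0.42 in -dox cells (adjusted p 0.017 and 0.0032, limma), and in -dox cells also under quantile normalization (-0.32, adjusted p 0.015) and without replicate 1 at 0 h (-0.22, adjusted p 0.037).

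In +dox against -dox cells at 0 h *Rps20* and *Rps6*, both of the small subunit, were higher. *Rps20* had 820.4, 914 and 989 CPM in +dox cells and 610.3, 748 and 735 CPM in -dox cells (0.38 ± 0.10, adjusted p 0.0092, limma). *Rps6* had 374, 358 and 403 CPM in +dox cells and 261, 327 and 329 CPM in -dox cells (0.31 ± 0.11, adjusted p 0.036). Neither pair of groups overlapped. Without replicate 1 of -dox at 0 h, the library that stood apart, *Rps6* was at 0.20 with an adjusted p of 0.16, *Rps20* at 0.29 stayed called, and *Rpl36a*, *Rpl36al*, *Rpl37a* and *Rps27l* were lower, with a member median of -0.02. The count of 3 called members became 6 without replicate 2 of -dox, 5 without replicate 1 of +dox and 0 without replicate 3 of +dox, all at 0 h. Of all genes 18.2%, 17.9% and 15.4% were then higher and 10.8%, 9.89% and 8.91% lower. *Rpl36al*, a low paralogue of *Rpl36a*, was lower, with 5.26, 6.36 and 5.79 CPM in +dox cells and 7.72, 7.70 and 8.56 CPM in -dox cells (-0.43 ± 0.14, adjusted p 0.025, and 0.067 to 0.096 without replicate 3 of -dox or replicate 1 or 3 of +dox).

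At 24 h *Rps14* was among the 2 members higher in +dox than in -dox cells. *Rps14* had 5896, 5718 and 4001 CPM in +dox cells and 3892, 3892 and 3850.2 CPM in -dox cells (0.40 ± 0.13, adjusted p 0.033, limma). The groups did not overlap, but replicate 3 of +dox was near the -dox libraries. Without that library 21 members rose (26.6%, beside 16.6% of all genes) and 1 fell (1.27%, beside 21.1%), and without any 1 of the other 5 libraries 0 were called by limma; edgeR on recovered reads also called 0, and limma had 11 members at an unadjusted p under 0.05 with all libraries. The interaction of treatment and time had 0 members called in either experiment (all genes 3.92% higher and 3.59% lower with the shRNA, 2.37% and 8.08% with doxycycline), with 1 and 3 members at an unadjusted p under 0.05 (all genes 22.6% and 24.5%).

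The related genes did not move as a block. *Rps27l*, which encodes a variant of RPS27, rose in +dox cells, with 225, 194 and 176 CPM at 24 h against 111, 134 and 124 CPM at 0 h (0.68 ± 0.12, adjusted p 0.00013, limma), and was not called in the others (0.06, 0.04 and 0.18 in *shId1*, *shScr* and -dox cells), while *Rps27* had 1445, 1299 and 1023 CPM in +dox cells at 24 h against 620.0, 619 and 622 CPM at 0 h. *Rps19bp1* rose by 0.49 ± 0.12 in +dox and 0.60 ± 0.12 in -dox cells and was not called in *shId1* and *shScr* cells (-0.12 ± 0.18 and -0.25 ± 0.18), where it was called lower with each library set to the same total (-0.39 and -0.44, adjusted p 0.0375 and 0.0235). Under that scaling its change in +dox cells was not called (0.175, adjusted p 0.18). *Rpl37rt*, a transcribed processed pseudogene, rose in all 4 kinds of cells, by 0.56 to 0.84. It shares 38.5% of its 50-base words with other genes, and whether reads of those genes are among its own was not tested. *Rpl6l* and *Rps3a2* never exceeded 3.55 CPM in any library. Of the 7 related genes 4, 2, 5 and 2 rose in *shId1*, *shScr*, +dox and -dox cells, with a median of 0.55, 0.25, 0.49 and 0.30, where 29.5%, 30.6%, 35.6% and 37.6% of all genes rose.

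Ribosome biogenesis genes and RNA polymerase I genes fell more often than they rose. Of 50 ribosome biogenesis genes 46 fell in *shId1* and in *shScr* cells at 24 h, 28 in +dox and 30 in -dox cells, and 0, 1, 4 and 4 rose. Of all genes 28%, 30.1%, 39.1% and 38.3% fell and 29.5%, 30.6%, 35.6% and 37.6% rose in the same cells. Their median log2 fold change was -0.95, -1.01, -0.59 and -0.41, where that of the ribosomal protein genes was positive in all 4. *Tcof1*, which aids rRNA transcription in the nucleolus, fell by 1.64 and 1.94 log2 units in *shId1* and *shScr* cells, and *Nolc1*, a nucleolar phosphoprotein, fell by 1.56 and 1.55. *Wdr43*, of the early small subunit processome, fell by 1.76 in +dox and 1.64 in -dox cells. Of 14 measured RNA polymerase I genes 9, 11, 8 and 10 fell. *Polr1a*, the largest subunit of that polymerase, fell by 1.55, 1.45, 0.76 and 0.84 in the 4 kinds of cells. These falls are under TMM scaling, and setting libraries to the same total lowers the medians further.

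**Figure D5:**
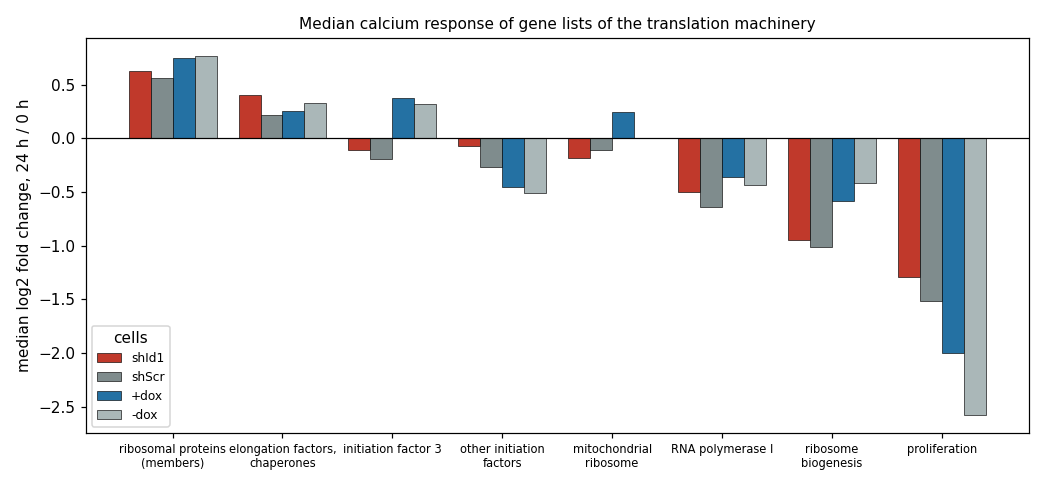
Median log2 fold change at 24 h against 0 h (bars) of the 79 ribosomal protein genes and of 7 other gene lists in 4 kinds of cells. The ribosomal protein genes are above 0 in all 4 (0.56 to 0.77), and the ribosome biogenesis genes are below 0 in all 4 (-1.01 to -0.41).

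The 71 measured genes of the mitochondrial ribosome, a separate particle, were split: 3, 4, 36 and 21 rose and 25, 23, 14 and 19 fell in *shId1*, *shScr*, +dox and -dox cells, where 29.5%, 30.6%, 35.6% and 37.6% of all genes rose and 28%, 30.1%, 39.1% and 38.3% fell. Of 13 measured subunits of initiation factor 3, which holds the small subunit for initiation, 4, 4, 7 and 8 rose and 3, 5, 5 and 4 fell. *Eif3f* rose by 1.17 and 1.29 in +dox and -dox cells and by 0.73 and 0.49 in *shId1* and *shScr* cells, whereas *Eif3b* fell by 0.54 and 0.48 in *shId1* and *shScr* cells and rose by 0.37 and 0.32 in +dox and -dox cells. Of 15 other initiation factors 3, 0, 5 and 6 rose and 3, 8, 8 and 8 fell, with *Eif6*, which keeps the free subunits apart, up by 1.19 and 1.39 in +dox and -dox cells and *Eif4a2* down by 1.34 and 0.94. Of 12 elongation factors and chaperones, many known for TOP mRNAs, 7, 5, 6 and 8 rose and 3, 5, 3 and 3 fell. *Tpt1*, with a classical TOP mRNA, rose by 1.22, 0.97, 0.69 and 0.96, while *Npm1*, the nucleolar chaperone, fell by 0.57, 1.07, 1.71 and 1.61 in *shId1*, *shScr*, +dox and -dox cells.

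Ribosomal components that the symbols miss followed the members. *Fau*, which encodes a ubiquitin-like fusion to the small subunit protein eS30, rose by 0.97, 1.04, 1.20 and 1.64 in *shId1*, *shScr*, +dox and -dox cells. *Rack1*, the scaffold protein on the head of the small subunit, rose by 0.62, 0.70, 1.17 and 1.04. *Fau* was also higher in +dox than in -dox cells at 0 h (0.59 ± 0.13, adjusted p 0.0031, limma).

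The known regulators of these genes that are given here did not show a single pattern. A list of 24 regulators was measured, and most of it is not reported here. *Myc*, a transcription factor that raises ribosomal protein and biogenesis genes, fell by 0.34 and 0.42 in *shId1* and *shScr* cells at 24 h and rose by 0.48 and 0.73 in +dox and -dox cells. *Mxd1*, which competes with it for MAX, rose in all 4, by 2.84, 2.76, 1.73 and 2.64. *Mycn* was higher in +dox than in -dox cells at both times, by 0.91 ± 0.16 and 1.82 ± 0.16 (adjusted p 0.00069 and 7.5e-06, limma). *Rps6kb2*, an S6 kinase gene that the rule left out, rose by 1.17, 1.74, 1.21 and 1.35 in *shId1*, *shScr*, +dox and -dox cells. All 10 proliferation genes fell at 24 h in each of the 4 kinds of cells, with medians of -1.30, -1.52, -2.00 and -2.58. Their part in the ribosomal protein changes was not tested.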

How the data were processed

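The authors sequenced stranded poly(A) libraries, converted base calls with bcl2fastq 2.19.1.403 and mapped reads to GRCm38. No source used here names the aligner or the counter. The deposited table holds a normalized signal per gene, CPM of a TMM-scaled library size made by the authors with edgeR. Its values are not divided by length although its title names FPKM. Divided by the smallest step between low values, the worth of 1 read, all values of all 24 libraries came within 0.05 of a whole read. Reads were used in edgeR only for the 18 libraries where the step could also be checked on at least 100 low values, up to 20 times the smallest; 5 others had fewer, and in 1 the smallest value was 2 reads.

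Members, gene lists, tests and alternatives were chosen with earlier results of these data known. The 12 libraries of each experiment entered 1 fit each with limma 3.58.1 (R 4.3.3), with a variance trend and robust moderation, after adding 0.5 and taking log2. Genes had to reach a value of 1 in 3 or more libraries (10790 and 10789 genes). Fold changes of low genes are understated on this scale. A call is an adjusted p (Benjamini-Hochberg over all genes) below 0.05. The script was tested on simulated data. Depth over all 24 libraries was 21442371 to 35720140 reads, so library spread and not counting limits most members.

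Named were, per comparison, the 3 most positive and 3 most negative members with a mean of at least 2, every member past 2-fold, the related genes and the standard gene each resembles, *Rpl5*, *Rpl11*, the P stalk, *Rps6*, *Rps14*, *Rps19*, the 3 members most and least alike, up to 3 genes per other list, and *Id1*, *Myc*, *Mycn*, *Fau* and *Rack1*. Not all of them are given values, and some members that the rule names are not reported here. Positions are from GENCODE M21, starts from RefSeq (GRCm38).

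Same-numbered libraries deviated together over all genes in *shId1* against *shScr* cells at 0 h (r 0.181 to 0.706) and 24 h (0.297 to 0.707). The highest r was that of the libraries numbered 1 at each time. Deviations were taken from the mean of 3 libraries, so a shared outlier alone makes the other pairs deviate alike. Libraries of different numbers were not compared, so whether the numbers pair the samples was not settled. For the other 6 comparisons at least 1 pair was not above 0.1. Alternatives were pseudocounts of 0.1 and 1, no filter, a filter at 5, 3 scalings, other sets of libraries, the replicate block, edgeR 4.0.16 on recovered reads and leaving out each library.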

Additional observations from a re-analysis of the deposited data

How the results depend on the processing

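Quantile normalization and scaling to the same total moved the most. The calcium medians of the members were 0.23 (*shId1*), 0.34 (*shScr*), 0.27 (+dox) and 0.25 (-dox) under quantile normalization, and 0.35 (*shId1*), 0.43 (+dox) and 0.43 (-dox) with the same total. Members called in *shId1* cells at 24 h against 0 h were then 28 under quantile normalization, and those past 2-fold were 1 (+dox) and 3 (-dox) under quantile normalization and 3 in each with the same total. Past 2-fold in the shRNA experiment were 1 (*shId1*) without all libraries numbered 1 and 2 (*shScr*) with edgeR. Members called in *shId1* against *shScr* cells were 5 with edgeR at 0 h, and at 24 h 0 with only the compared groups, 1 under quantile normalization, 4 with the replicate block and 4 without libraries numbered 1. In that order 5.06%, 0%, 0%, 3.8% and 3.8% of the members were higher, beside 7.88%, 5.26%, 7.04%, 11% and 11.2% of all genes. Lower were 1.27%, 0%, 1.27%, 1.27% and 1.27%, beside 8.03%, 3.77%, 8.02%, 10.1% and 9.72%. In +dox against -dox cells at 0 h members called were 0 with all 24 libraries, 5 with only the compared groups, 18 under quantile normalization and 5 with the same total. In that order 0%, 5.06%, 21.5% and 5.06% were higher, beside 17.4%, 23.1%, 18.4% and 21% of all genes. Lower were 0%, 1.27%, 1.27% and 1.27%, beside 13%, 19.5%, 19.2% and 12.2%. At 24 h 0 were called with all 24 libraries, with only the compared groups and with edgeR (all genes 8.99%, 6.95% and 8.12% higher). All 8 under quantile normalization and all 6 with the same total were higher (10.1% and 7.59%, beside 10.1% and 12.2% of all genes). The shRNA interaction had 1 member called with all 24 libraries and 1 with the replicate block (*Rpl22l1*), and the doxycycline interaction 1 under quantile normalization. Over all genes 1308 of 10818, 1299 of 10790 and 1165 of 10790 were called in that order. The block moved no other count of members by more than 1.5 times.

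Leaving out 1 library gave 49 to 74 members called at 24 h against 0 h in *shId1*, 41 to 73 in *shScr*, 66 to 69 in +dox and 67 to 70 in -dox cells, with medians of 0.52 to 0.74, 0.49 to 0.71, 0.64 to 0.83 and 0.65 to 0.81 and 0 to 2, 0 to 3, 10 to 27 and 9 to 19 past 2-fold. Members that rose were then 60.8% to 92.4%, 50.6% to 91.1%, 83.5% to 87.3% and 83.5% to 88.6%. Of all genes 26% to 30.7%, 26.9% to 31.2%, 32.9% to 36.8% and 35.1% to 36.4% rose. In *shId1* against *shScr* cells it gave 1 called at 0 h and 0 to 1 at 24 h, with medians of -0.0006 to 0.15 and -0.04 to 0.25. In +dox against -dox cells it gave 0 to 6 and 0 to 22, with medians of -0.02 to 0.17 and 0.02 to 0.20, and in the interactions 0 (shRNA) and 0 to 4 (doxycycline). Over all genes the interactions then had 313 to 968 (shRNA) and 709 to 2002 (doxycycline) called.

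Log2 fold changes at 24 h against 0 h that were called under the authors' scaling or the other one, and whose sign turned under quantile normalization, were, among members reported here, those of 14, 7, 17 and 17 in *shId1*, *shScr*, +dox and -dox cells, of which 4, 3, 6 and 7 were called lower under it, and of *Eef1b2*, *Eif4b* and *Rack1*. They were *Eef1b2* (-0.0024), *Eif4b* (-0.053), *Rack1* (-0.026), *Rpl10* (-0.13), *Rpl12* (-0.13), *Rpl23* (-0.049), *Rpl32* (-0.028), *Rpl4* (-0.23), *Rpl6* (-0.19), *Rpl7* (-0.15), *Rpl7a* (-0.29), *Rpl9* (-0.021), *Rplp0* (-0.13), *Rps2* (-0.50), *Rps4x* (-0.071), *Rps9* (-0.010) and *Rpsa* (-0.31) in *shId1* cells, and *Rpl32* (-0.105), *Rpl4* (-0.25), *Rpl7* (-0.12), *Rpl7a* (-0.31), *Rplp0* (-0.088), *Rps2* (-0.31) and *Rps4x* (-0.042) in *shScr* cells. In +dox cells they were *Rpl10* (-0.11), *Rpl12* (-0.093), *Rpl17* (-0.10), *Rpl21* (-0.23), *Rpl3* (-0.12), *Rpl30* (-0.12), *Rpl6* (-0.20), *Rpl7* (-0.55), *Rpl7a* (-0.19), *Rpl9* (-0.12), *Rps12* (-0.18), *Rps20* (-0.035), *Rps23* (-0.027), *Rps24* (-0.17), *Rps27a* (-0.076), *Rps3a1* (-0.36) and *Rps4x* (-0.33). In -dox cells they were *Rpl12* (-0.049), *Rpl17* (-0.16), *Rpl21* (-0.22), *Rpl23* (-0.67), *Rpl30* (-0.049), *Rpl32* (-0.031), *Rpl5* (-0.29), *Rpl6* (-0.15), *Rpl7* (-0.66), *Rpl7a* (-0.45), *Rpl9* (-0.18), *Rps2* (-0.027), *Rps24* (-0.17), *Rps27a* (-0.13), *Rps3a1* (-0.35), *Rps4x* (-0.40) and *Rpsa* (-0.17). With the same total *Rpl23* (-0.32) and *Rps24* (-0.050) turned in -dox, *Rpl30* (-0.046), *Rpl7* (-0.23) and *Rps24* (-0.073) in +dox and *Rps27l* (-0.22) in *shId1* cells. The cause was not tested. Of all genes called at 24 h against 0 h, 51.4%, 50.4%, 47.6% and 49.5% were higher in *shId1*, *shScr*, +dox and -dox cells, and 29.6%, 37.0%, 29.8% and 32.5% with the same total. Of the other values of single genes, apart from leaving out a library, 9031 kept their call or lack of one, 179 gained a call and 197 lost it. Direction was kept wherever either setting had a call, and values called in neither could turn. edgeR could be run in 4 comparisons, where both groups keep at least 2 libraries with recovered reads.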
